A study of Mus musculus with 2 samples.

Results

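The interferon-gamma-induced GTPases are 9 genes of 2 families, chosen by their symbols: the guanylate-binding proteins Gbp2, Gbp3, Gbp4, Gbp5 and Gbp7, and the immunity-related GTPases Iigp1, Irgm1, Irgm2 and Igtp. All 9 were among the 32285 features counted in each of 2 lung sections profiled with Visium, an assay that counts messenger RNA in spots on a slide, each spot holding several cells. The metastatic section came from the 4T1 model, in which 4T1 cells, a mouse mammary tumour line, are placed in the mammary fat pad and spread to the lung. By the study's methods for this model, 1000000 cells were given to female Balb/c mice of 6 to 8 weeks and lungs were taken after 21 to 23 days. The control section came from the lung of a mouse labelled as control with no treatment, with no age, sex or strain in its labels. The metastatic section held 1110 spots with 14657881 counts and a median of 11334.5 counts per spot, and the control section 1888 spots with 20329126 counts and a median of 9643.5. With 1 section per condition there was no replicate and no test. Section, library and animal cannot be told apart, and all intervals below are 95% intervals that cover counting error only.

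Guanylate-binding proteins and immunity-related GTPases are among the genes most strongly switched on by interferon-gamma, a cytokine released mainly by T cells and natural killer cells. Signalling from its receptor acts on genes through gamma-activated sites and also raises Irf1, a factor that binds interferon-stimulated response elements. Both families coat the membranes of vacuoles that hold bacteria or parasites. Iigp1 acts on these membranes directly, whereas Irgm1, Irgm2 and Igtp restrain the other immunity-related GTPases on the cell's own membranes. Cxcl9, which is used below as a second readout of interferon-gamma, is a chemokine that attracts T cells carrying the receptor Cxcr3.

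Several members lie side by side. In RefSeq on GRCm38.p6, which is the mm10 build of the labels, Gbp5, Gbp7, Gbp3 and Gbp2 follow each other on chromosome 3 between 142496934 and 142638008. Gbp4 lies on chromosome 5 (105115767 to 105139586). Irgm1 (48865245 to 48871420), Igtp (58199556 to 58207592) and Irgm2 (58214977 to 58222783) lie on chromosome 11, with Igtp and Irgm2 next to each other and Irgm1 far from both. No position is given here for Iigp1. Promoter windows of 250 bases before to 50 bases after the start site were given for 7 members, and all 7 held in at least 1 window the letters of an interferon-stimulated response element, GAAANNGAAA or on the other strand TTTCNNTTTC. These letters occurred in 3.44% of 32851 windows. The letters of a gamma-activated site, TTCNNNGAA, were found in the windows of 4 of the 7 (Gbp5, Gbp7, Igtp and Irgm2) and in 8.30% of all windows. A match is a description of the letters and not of binding. The stretches around the response elements are shown because they are the sequence the members share, with the matched letters in capitals, 5′ to 3′ on the strand of the gene and ending before its outermost start in RefSeq. Gbp3 had 2 windows for different start sites, of which the one shown held the element.
Gbp5, chr3:142496744-142496803, plus strand: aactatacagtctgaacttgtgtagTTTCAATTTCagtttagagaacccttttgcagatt
Gbp7, chr3:142530258-142530317, plus strand: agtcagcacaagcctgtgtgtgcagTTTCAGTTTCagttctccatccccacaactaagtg
Gbp3, chr3:142559974-142560015, plus strand: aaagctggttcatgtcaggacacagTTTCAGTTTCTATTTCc
Gbp2, chr3:142620579-142620638, plus strand: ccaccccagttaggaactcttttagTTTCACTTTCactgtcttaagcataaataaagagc
Irgm1, chr11:48871421-48871475, minus strand: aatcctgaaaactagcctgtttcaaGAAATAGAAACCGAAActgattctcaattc
Igtp, chr11:58199497-58199555, plus strand: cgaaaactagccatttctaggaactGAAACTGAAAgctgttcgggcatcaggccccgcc
Irgm2, chr11:58214888-58214947, plus strand: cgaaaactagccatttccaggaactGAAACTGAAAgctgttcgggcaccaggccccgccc
The stretches of Igtp and Irgm2 were identical at 57 of 59 bases. The 4 guanylate-binding protein stretches carried the element as TTTCNNTTTC and the 3 immunity-related GTPase stretches as GAAANNGAAA. Gbp3 and Irgm1 each held 2 overlapping matches. Reads from such close relatives, also from Gbp2 and its neighbour Gbp2b, may not always have been assigned to the right gene, so the sums are firmer than single members.

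Regions were set from the other genes. Spots of the metastatic section were clustered without the members and without every interferon, chemokine and MHC gene listed for this work, and the cluster with the highest level of a list of 4T1 and proliferation genes was called the core. After 7 spots with fewer than 2 neighbours in the cluster were removed, it held 90 spots. The largest connected piece, of 78 spots, is called the larger metastasis, and the other 12 core spots the smaller. These names rest on the clustering alone. The choice of cluster was narrow. The list stood at 16.58 counts per 10000 in the chosen cluster, which held 97 spots before the removal. It stood at 15.03 in a cluster of 32 spots and 14.61 in one of 98 spots. The clusters of 604 and 279 spots had 9.02 and 6.97. Whether spots of the clusters next in level held tumour cells was not tested, and all core, margin and distance values rest on this choice. Since the level of the list chose the cluster, the genes of the list describe the core and do not check its label. Mki67 reached 1.09 counts per 10000 (CP10k) in the core and 0.995 in the margin within 200 µm of it, against 0.084 in lung more than 500 µm away. Hmga2 stood at 0.198, 0.0792 and 0.00702 in the same order. Of the 17 genes of the list, 11 were higher in the core than in the margin, so proliferation transcripts were not confined to the core. Over all genes tested, 58.4% were lower in the core than in the margin. The list was high only in part: Krt7 and Krt19, also of it, were lower in the core than in far lung, and Krt14 and Hmga1 had no count in either. The whole list of 17 genes summed to 16.3 CP10k in the core, 15.4 in the margin and 8.23 in far lung. The core also had little normal lung RNA, with 15.9 CP10k of Sftpc (surfactant protein C) against 147 in far lung. The margin was the 88 spots within 200 µm of a core spot, the intermediate zone the 143 spots beyond, and far lung the 789 spots more than 500 µm away, the farthest at 2193 µm. The core of the smaller metastasis was shallow, with a median of 2192.5 counts per spot against 19625.5 in the larger. Scgb1a1, the main club cell secretion, took 23.2% of all counts in far lung, 3.34% in the margin, 0.255% in the core and 15.2% in the control section. This share enters every total, so ratios are also given with a reduced library size, from which 455 haemoglobin, mitochondrial, surfactant protein, immunoglobulin and secretoglobin genes were left out.

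The GTPases were higher around the metastases than in far lung. The sum of the 9 genes was 14.0 CP10k in the margin (13.3 to 14.7, 1588 counts) against 2.74 in far lung (2.64 to 2.85, 2735 counts), a ratio of 5.10 (4.79 to 5.43). With the reduced library size the ratio was 3.70 (3.48 to 3.94). All 88 margin spots held at least 1 GTPase count, with a lowest level of 0.475, a median of 12.6 and a highest of 56.8 CP10k. In far lung 692 of 789 spots did, with a median of 2.57 and a highest of 37.2 CP10k. The levels of single spots thus overlapped widely between the regions, although their medians lay far apart.

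**Figure D1:**
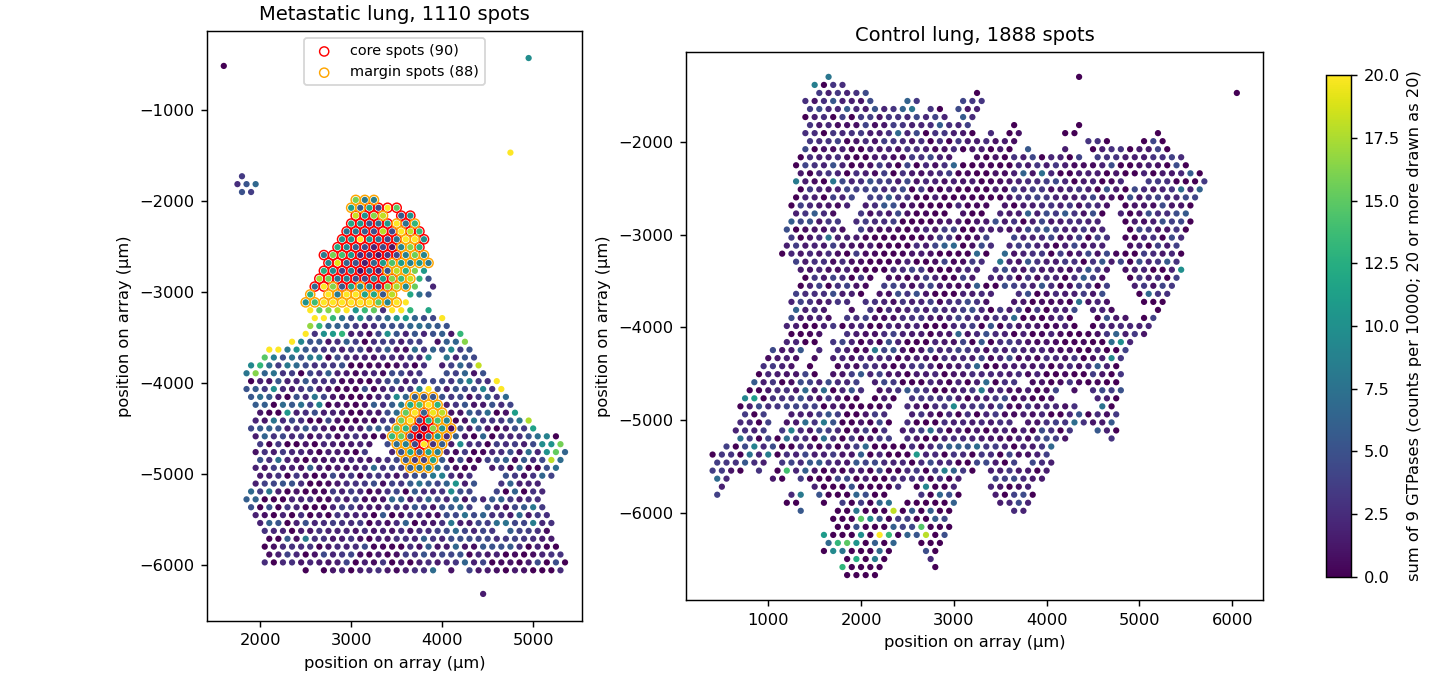
Sum of the 9 GTPases in counts per 10000 in every spot, drawn at its position on the array in µm, with core spots ringed in red and margin spots in orange. The metastatic section has high spots around both metastases and along parts of its outline, and 29 of 789 far lung spots reached 10 or more; the 15 control spots that did were shallow, with a median of 1106 counts.

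The sum fell with distance in every step outward from the margin. It was 14.6 CP10k up to 100 µm from the core (13.7 to 15.6), 13.1 from 100 to 200 µm (12.1 to 14.2), 8.37 from 200 to 300 µm (7.71 to 9.07) and 4.34 from 300 to 500 µm (3.98 to 4.72). From 500 to 900 µm it was 2.98 (2.82 to 3.15), and beyond 900 µm 2.57 (2.44 to 2.70). The excess over far lung had dropped to 50% of that in the highest ring at 265 µm for the sum, at 259 µm for the guanylate-binding proteins and at 271 µm for the immunity-related GTPases. For single members this distance ran from 224 µm (Gbp7) to 298 µm (Gbp4). Cxcl9 reached it at 230 µm and Cxcl10 at 222 µm. Rings are 100 µm wide, the spacing of the spots, so differences of this size between genes lie below the grid.

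At both metastases the margin was higher than far lung. Around the larger the sum was 16.4 CP10k in the margin (15.4 to 17.3) and 4.94 in the far lung nearest to it (4.58 to 5.33), a ratio of 3.31 (3.01 to 3.64). Around the smaller these levels were 9.31 (8.37 to 10.3) and 2.39 (2.28 to 2.49), a ratio of 3.90 (3.48 to 4.37). Each ratio alone was smaller than the pooled 5.10. The larger metastasis supplied 1232 of the 1588 margin counts, and the smaller 2048 of the 2735 far lung counts. The club cell share differed as well: Scgb1a1 took 0.274% of margin counts at the larger metastasis and 9.37% at the smaller.

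All 9 members were at least 2-fold higher in the margin than in far lung, as were 22.2% of the 14196 genes with at least 10 counts there. Their median log2 ratio was 2.48, beside 0.38 over all genes tested. Gbp5, which is known to promote inflammasome assembly, had the largest ratio and the fewest counts: 0.273 CP10k in the margin against 0.0311, a ratio of 8.78 with a wide interval (5.16 to 14.9). Iigp1 rose from 0.336 CP10k in far lung (0.301 to 0.374) to 2.42 in the margin (2.14 to 2.73), a ratio of 7.21 (6.12 to 8.48). Gbp4 stood at 0.277 and 1.73 CP10k, a ratio of 6.24 (5.17 to 7.52). The ratios of Gbp3 (5.77, 4.39 to 7.56), Igtp (5.57, 4.71 to 6.59), Irgm1 (4.95, 3.99 to 6.12) and Gbp2 (4.67, 4.13 to 5.27) had overlapping intervals. Gbp7, which helps assemble the NADPH oxidase, had 0.969 against 0.270 CP10k, a ratio of 3.59 (2.85 to 4.50). Irgm2 had the smallest ratio, 2.99 (2.36 to 3.75), with 0.889 against 0.298 CP10k, and its interval lay below those of Gbp2, Gbp3, Gbp4, Gbp5, Iigp1, Irgm1 and Igtp. With the reduced library size the members ran from 2.17 (Irgm2) to 6.38 (Gbp5). Around the larger metastasis alone 8 of the 9 were at least 2-fold higher (14.7% of all genes), and Irgm2 reached 1.97 (1.41 to 2.77). Around the smaller all 9 were (27.4% of all genes).

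**Figure D2:**
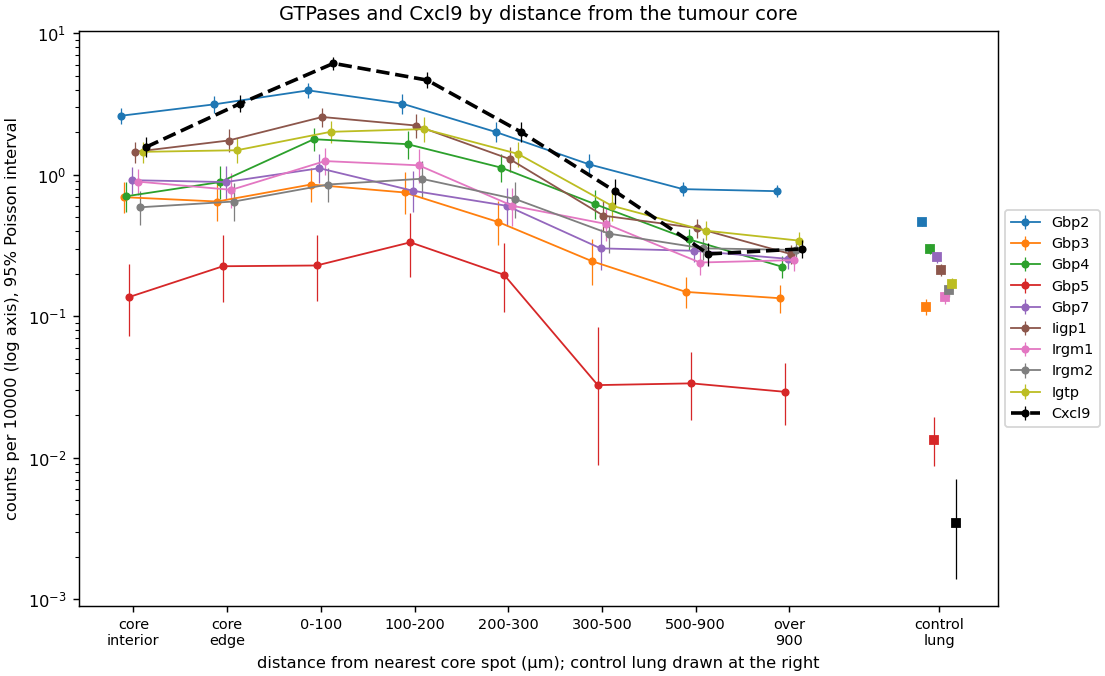
Levels of each GTPase and of Cxcl9 (counts per 10000, log axis, 95% Poisson intervals) from the interior of the core outward in µm, with the control section at the right as squares. All members peak within 200 µm of the core, and Cxcl9 spans a much wider range, from 6.13 in the first ring to 0.00344 in control lung.

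In the core set by clustering, the GTPases were lower than at the margin but higher than in far lung. The sum was 9.87 CP10k in the core (9.40 to 10.4, 1593 counts), which is 0.706 times the margin (0.658 to 0.758) and 3.60 times far lung (3.38 to 3.83). With the reduced library size these ratios were 0.672 (0.627 to 0.721) and 2.49 (2.34 to 2.65). Against far lung the members then ran from 1.42 (Irgm2) to 3.86 (Gbp5). All 9 members lay below the margin, as did 58.4% of the 11759 genes tested, and 1 of them, Gbp4, was at least 2-fold lower (15.5% of genes were). Gbp4 had 0.781 CP10k in the core against 1.73 in the margin, a ratio of 0.453 (0.359 to 0.569). Gbp7 stood at the other end with 0.905 against 0.969, a ratio of 0.934 (0.725 to 1.21). The intervals of Gbp3 (0.834, 0.626 to 1.11), Gbp5 (0.636, 0.368 to 1.10) and Gbp7 included 1. Iigp1 (0.650), Irgm1 (0.699), Irgm2 (0.690), Igtp (0.716) and Gbp2 (0.781) lay between, each with an interval below 1. The median log2 ratio of the members was -0.52, beside -0.13 over all genes tested.

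The decline into the core was steeper for Cxcl9 than for the GTPases. Cxcl9 fell from 5.51 CP10k in the margin (5.09 to 5.96) to 2.23 in the core (2.01 to 2.47), a ratio of 0.405 (0.355 to 0.462) that lay below the interval of the GTPase sum. Within the core, the 45 interior spots, which touch no spot outside it, had 9.46 CP10k of the GTPases (8.85 to 10.1) and the 45 edge spots 10.5 (9.70 to 11.3), a ratio of 0.904 (0.817 to 0.999). For Cxcl9 the same ratio was 0.494 (0.398 to 0.612) and for Cxcl10 0.458 (0.370 to 0.565). Single members ran from 0.606 (Gbp5, 28 core counts) to 1.14 (Irgm1), and all 9 intervals included 1. T cell markers were also highest in the margin: the list of 9 genes summed to 5.12 CP10k in the margin, 1.57 in the core and 1.33 in far lung, with 9 of 9 genes higher in the margin than in far lung and 0 of 9 higher in the core than in the margin. Of all genes tested, 58.4% were lower in the core than in the margin, and 22.2% were at least 2-fold higher in the margin than in far lung. The macrophage and monocyte list of 11 genes was as high in the core (19.9 CP10k) as in the margin (20.5), against 5.61 in far lung. No gene of either list was at 0 in these regions, and their part in the GTPase levels was not tested.

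The core against margin contrast depended on how the core was defined. At the larger metastasis the ratio of the sum was 0.608 (0.564 to 0.655). At the smaller it was 0.735 from only 23 core counts, with an interval that included 1 (0.460 to 1.12). When the 90 spots with the highest level of the 4T1 and proliferation list were taken as core instead, 32 of them were shared, the margin grew to 382 spots and the ratio turned to 1.80 (1.69 to 1.90). Over the spots of the clustered core, the GTPase sum had its highest Spearman correlation among the marker lists with this same list (0.472). The mesothelial list had 0.369, the macrophage and monocyte list 0.233 and the T cell list 0.194. The reason for the reversal was not tested. Clustering into 8 groups gave a core of only 3 spots and a ratio of 1.33 (1.06 to 1.66), while the 8-group cluster of 83 spots that shared most with the core, chosen after seeing the data, gave 0.667 (0.621 to 0.716).

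**Figure D3:**
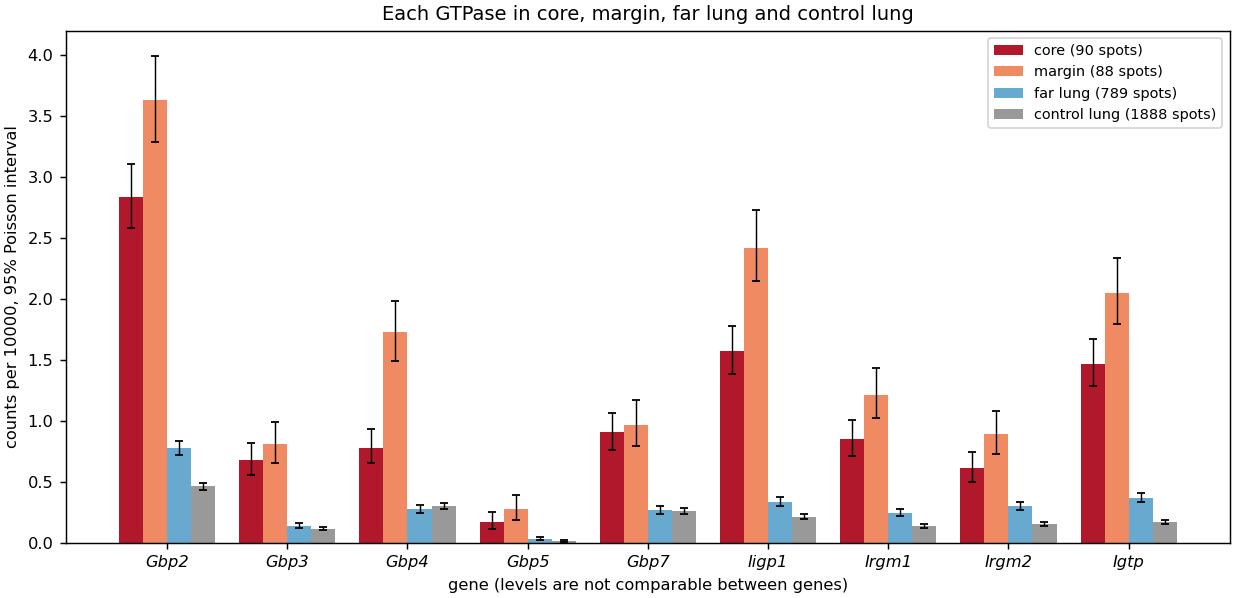
Level of each GTPase (counts per 10000, bars from 0, 95% Poisson intervals) in the core, margin, far lung and control lung. For every gene the margin bar is the highest, Gbp4 shows the deepest drop from margin to core, and far lung is close to control lung for Gbp4 and Gbp7.

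Far from the metastases, the GTPases were moderately higher than in control lung, and the difference was carried mainly by the immunity-related GTPases and Gbp2. The sum was 1.82 CP10k in the control section (1.76 to 1.88, 3706 counts), so far lung had 1.50 times its level (1.43 to 1.58), or 1.65 times with the reduced library size (1.57 to 1.73). The immunity-related GTPases stood at 1.25 against 0.672 CP10k, a ratio of 1.86 (1.72 to 2.01), and the guanylate-binding proteins at 1.50 against 1.15, a ratio of 1.30 (1.22 to 1.39). Igtp (0.368 against 0.169 CP10k) had a ratio of 2.17 (1.87 to 2.53), Irgm2 1.95 (1.66 to 2.30), Irgm1 1.79 (1.50 to 2.13), Gbp2 1.68 (1.53 to 1.85) and Iigp1 1.58 (1.36 to 1.82). Gbp5 rested on 31 and 27 counts (2.34, 1.35 to 4.08). By contrast, with the full library size no difference was detectable beyond counting error for Gbp3 (1.20, 0.970 to 1.49), Gbp7 (1.03, 0.888 to 1.20) and Gbp4 (0.930, 0.804 to 1.07). Of the 9 members, 8 lay above 1 (28.9% of the 15784 genes tested did), 6 were at least 1.5-fold higher (4.63%) and 2, Gbp5 and Igtp, at least 2-fold higher (2.18%), and the median log2 ratio of the members was 0.75, beside -0.18 over all genes tested. With the reduced library size the interval of Gbp3 lay above 1 (1.32, 1.06 to 1.63), whereas those of Gbp7 (1.13) and Gbp4 (1.02) still included 1. Cxcl9 had 289 counts in far lung and 7 in the whole control section. Neutrophil transcripts moved with the section too (list of 8 genes at 24.8 CP10k against 2.21), as did macrophage transcripts (5.61 against 3.49), and their part was not tested. Beyond 900 µm the ratio of the GTPase sum to control was 1.41 (1.33 to 1.50). In the far lung nearest to the larger metastasis it was 2.71 (2.50 to 2.94) and in that nearest to the smaller 1.31 (1.24 to 1.38). With the core taken by list level, which left 233 spots as far lung, the ratio was 1.05 (0.964 to 1.14).

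The difference between far lung and control lung was larger in spots rich in macrophage transcripts than in spots poor in them. Spots were grouped by their level of the macrophage and monocyte list, which includes Adgre1, Csf1r and C1qa. In control lung the GTPase sum hardly moved, from 1.71 CP10k in the 946 spots with up to 4 CP10k of the list (1.64 to 1.78) to 2.01 in the 173 spots with 8 to 16 (1.79 to 2.25) and 2.22 in the 33 spots above 16 (1.65 to 2.90). In far lung its interval overlapped with that of control at the low end, with 1.67 in 299 spots (1.56 to 1.80), and then climbed to 2.89 between 4 and 8 (2.69 to 3.10), 3.92 between 8 and 16 (3.64 to 4.21) and 7.81 above 16 (7.02 to 8.66). In the intermediate zone the same steps ran from 1.76 to 10.6. Margin spots were higher still at equal macrophage level, with 12.9 between 8 and 16 (11.5 to 14.4) and 14.9 above 16 (14.1 to 15.7), and core spots had 8.87 (8.11 to 9.68) and 10.6 (10.0 to 11.3). With the reduced library size the low end differed as well, with 2.93 CP10k in far lung against 2.41 in control at up to 4 CP10k of the list and 3.14 against 2.48 in spots without a count of it. On this scale control lung stayed between 2.34 and 2.61 over all groups, and far lung reached 8.89 above 16. Whether the GTPase transcripts came from macrophages or from their neighbours cannot be told from spots, and fewer cells of a type and less RNA per cell cannot be told apart.

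**Figure D4:**
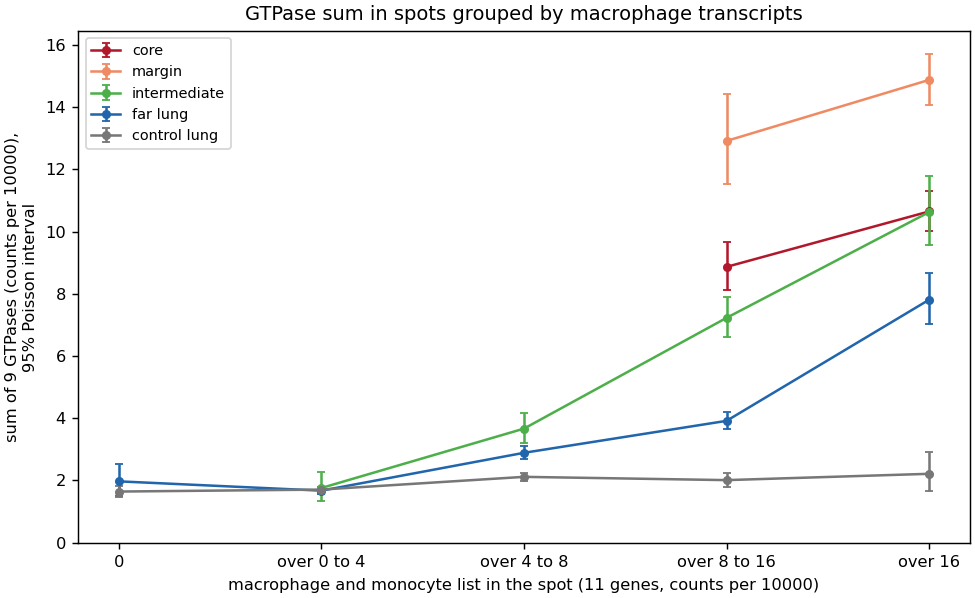
Sum of the 9 GTPases (counts per 10000, 95% Poisson intervals) in spots grouped by the level of the macrophage and monocyte list in the same spot. The control line stays near 2 across all groups, whereas the far lung line climbs from 1.67 to 7.81 and the margin lies above both.

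Read per macrophage list count, the regions came closer to each other. There were 0.523 GTPase counts for each macrophage list count in control lung (0.502 to 0.544), 0.489 in far lung (0.467 to 0.512) and 0.496 in the core (0.467 to 0.527), against 0.683 in the margin (0.641 to 0.729) and 0.588 in the intermediate zone (0.546 to 0.633). The margin thus had more GTPase transcripts per macrophage transcript than the other regions, and the core and far lung did not differ beyond counting error. For Gbp4 the value was 0.0843 in the margin, 0.0814 in the intermediate zone and 0.0853 in control lung. It was lower in the core (0.0393, 0.0326 to 0.0469) and in far lung (0.0493, 0.0436 to 0.0557), whose intervals overlapped.

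The outline of the tissue was another place of high GTPase levels. Spots of far lung on the outer edge of the section, chosen by position alone, had 4.99 CP10k (111 spots) against 2.45 in the 668 spots inside, a ratio of 2.04 (1.85 to 2.24), or 1.88 with the reduced library size. In control lung the same ratio was 1.47 (1.33 to 1.62), or 1.24 with the reduced library size. Mesothelial transcripts, which mark the pleural lining, were 18.3 times higher on the far lung outline than inside it (2.56 against 0.140 CP10k) and 5.06 times in control, while macrophage transcripts were 1.55 and 1.21 times higher and T cell transcripts 0.895 and 1.39 times. Iigp1 (2.79, 2.16 to 3.58) and Gbp2 (2.71, 2.29 to 3.20) were raised most clearly on the far lung outline, whereas the intervals of Gbp3, Gbp4, Gbp7 and Irgm1 included 1. The 10% of far lung spots richest in mesothelial transcripts had 8.52 CP10k of the GTPases against 2.31 in the others, a ratio of 3.69 (3.36 to 4.04), compared with 1.52 (1.38 to 1.67) in control lung. With the reduced library size these ratios were 2.84 (2.59 to 3.11) and 1.34 (1.21 to 1.48). The macrophage list stood at 10.9 CP10k in the mesothelium-rich far lung spots and 5.22 in the other far lung spots, and its part was not tested. Of the 10 far lung spots with the highest GTPase levels among those with at least 5000 counts (17.6 to 37.2 CP10k), all had 10.2 CP10k or more of mesothelial transcripts, and 7 had no Cxcl9 count, as had 588 of all 789 far lung spots. Most were rich in macrophage transcripts as well. The macrophage list stood at 13.0 to 36.7 CP10k in them, apart from 4.04 and 3.84 in those ranked 8th and 9th.

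Airways were the low end in both sections. In the metastatic section outside core and margin, the 10% of spots richest in club and ciliated cell transcripts had 0.645 CP10k of the GTPases against 4.04 in the others, a ratio of 0.160 (0.137 to 0.185), and in control lung 0.428 against 2.18, a ratio of 0.196 (0.168 to 0.228). With the reduced library size these were 0.310 and 0.374. Endothelium-rich spots stood out more in control lung (1.65, 1.47 to 1.84) than in the metastatic section (1.23, 1.11 to 1.37). In control lung Igtp reached 2.44 times the level of the other spots (1.75 to 3.34). With the reduced library size the metastatic ratio was 0.936 (0.841 to 1.04) and the control ratio 1.32 (1.18 to 1.47).

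The rank correlation of the GTPases with Cxcl9 was higher near the metastases than away from them, where Cxcl9 was sparse. Over the 88 margin spots the Spearman correlation of the GTPase sum with Cxcl9 was 0.619, over the 90 core spots 0.541 and over the 789 far lung spots 0.175. Only 12 of 88 margin spots but 588 of 789 far lung spots held no Cxcl9 count, and the part of this in the lower value was not tested. The margin also pools both metastases. Cxcl9 stood at 7.06 CP10k in the margin of the larger and 2.46 in that of the smaller, and the GTPase sum at 16.4 and 9.31. The part of this difference in the margin correlations and ranks was not tested. Points of 1 section share a library and neighbours share tissue, so these values are descriptions. Among 10290 genes with at least 10 counts in the margin, Gbp2 ranked 2nd (0.552), Igtp 3rd (0.483) and Iigp1 6th (0.469) by their correlation with Cxcl9, whereas Irgm2 ranked 1484th (0.155). In the core Gbp2 ranked 1st of 10246 genes (0.652). In far lung the members had lower values, with Gbp2 at 0.143 (153rd of the 6438 genes with at least 200 counts there), Gbp4 at 0.106 and Gbp7 at -0.0234. With Cxcl10 in far lung, Gbp2 ranked 13th of 6439 genes (0.217).

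Grouped by Cxcl9 counts, the GTPases were higher in spots with 3 or more counts than in spots without one in every region of the metastatic section. In far lung the GTPase sum was 2.49 CP10k in the 588 spots without a Cxcl9 count (2.38 to 2.61), 3.34 with 1 count (139 spots), 3.76 with 2 (43 spots) and 4.23 with 3 or more (19 spots, 3.44 to 5.15). Far lung spots with at least 1 count had 1.41 times the level of those without (1.30 to 1.53), or 1.26 times with the reduced library size, and Gbp7 showed no such difference (0.953, 0.707 to 1.27). Spots next to a Cxcl9 spot but without a count of their own had 1.05 times the level of the remaining spots (0.959 to 1.16). In the intermediate zone the sum went from 3.30 CP10k without a Cxcl9 count in 59 spots to 10.1 with 3 or more in 31 spots. In the margin it was 9.72 without a Cxcl9 count (12 spots, 8.11 to 11.6), 6.58 with 1 (14 spots, 5.44 to 7.88) and 16.6 with 3 or more (53 spots, 15.7 to 17.6). In the core it was 5.11 without a count (20 spots, 4.13 to 6.26) and 12.3 with 3 or more (37 spots, 11.5 to 13.0). Margin spots without a Cxcl9 count therefore still exceeded far lung spots with 3 or more. Median counts per spot ran from 7034 to 13462 over the margin groups and from 10487.5 to 23657.5 over the core groups, and deeper spots are more likely to hold a count.

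**Figure D5:**
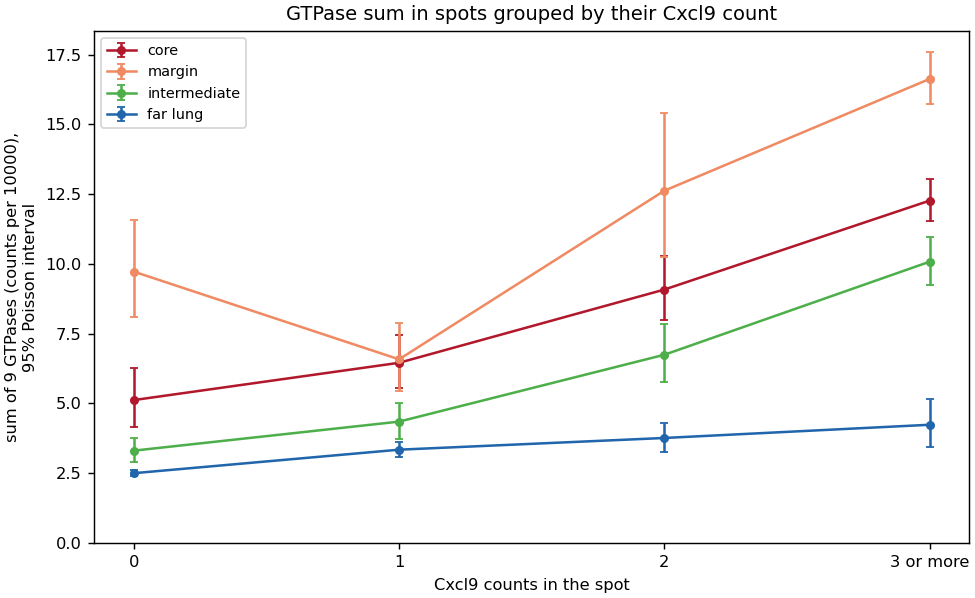
Sum of the 9 GTPases (counts per 10000, 95% Poisson intervals) in spots grouped by their number of Cxcl9 counts, for each region of the metastatic section. The far lung line rises from 2.49 to 4.23, the intermediate line from 3.30 to 10.1, and the margin and core lines end at 16.6 and 12.3.

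Members varied together only loosely from spot to spot. Over the 1020 spots outside the core the 36 pairs had Spearman correlations of 0.0754 to 0.348 with a median of 0.208, and in control lung -0.0210 to 0.0974 with a median of 0.0444, at few counts per spot. Gbp2 supplied 25.4% to 28.7% of the GTPase counts in core, margin, far lung and control lung. The 10 genes whose level was most like the GTPase sum over those 1020 spots, of 7804 genes with at least 200 counts, were H2-K1, B2m, S100a6, H2-D1, Tmsb4x, Rps12, Lgals1, C3, Rps4x and Psap, with correlations of 0.614 to 0.504. H2-K1, B2m and H2-D1 encode MHC class I chains. All 10 are abundant genes, with 5283 to 75937 counts, which favours them in such a ranking. Cxcl10 came 25th (0.467) and Cxcl9 88th (0.398). In control lung the leading genes were Sparc, Ly6a, Ramp2, Klf2 and Epas1 (0.324 to 0.312), several of them typical of endothelium.

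The ligand was barely captured, while most genes listed as interferon-gamma targets were higher in the margin than in far lung. Whether interferon-gamma raised them was not tested. Ifng itself had 17 counts in the metastatic section (4 in the core, 2 in the margin, 7 in the intermediate zone and 4 in far lung) and 10 in control lung. The receptor chain Ifngr1 was at 2.49 CP10k in the margin and 2.12 in far lung, a ratio of 1.18, and Ifngr2 had a ratio of 1.86. Among the signal transducers, Irf8 (2.53) and Jak2 (2.50) were at least 2-fold higher in the margin than in far lung, while Irf1 (1.87), Jak1 (1.64), Stat2 (1.70) and Irf9 (1.44) were not. Among 5 inhibitors Socs1, which blocks the receptor's kinases, had a ratio of 7.13 and Ptpn2 3.96, against 1.76 for Socs3, 1.37 for Usp18 and 1.00 for Pias1. Of the other members of both GTPase families, 8 of the 8 with enough counts were at least 2-fold higher, with a median log2 ratio of 3.28; Gbp6 had 0.986 against 0.0642 CP10k and Gbp2b 0.555 against 0.0441. The list of other interferon-gamma targets had 9 of 10 at least 2-fold higher (median log2 ratio 2.67), among them Nlrc5, which switches on MHC class I genes, at 8.71. All these shares stand beside the 22.2% of all genes.

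Antiviral genes of type I interferon had another profile. In the margin 12 of 18 were at least 2-fold higher than in far lung (22.2% of all genes were), with a median log2 ratio of 1.44. From margin to core the median log2 ratio of the 17 with enough counts was -0.03, beside -0.52 for the GTPases, and their summed level was 1.18 times as high in the core. MHC class II genes fell further, with 5 of 6 at least 2-fold lower in the core (15.5% of all genes were) and a median log2 ratio of -1.18. Of 7 genes that work with guanylate-binding proteins at vacuoles, namely autophagy genes such as Atg5 and the sensors Casp4 and Aim2, 2 were at least 2-fold higher in the margin than in far lung, a share near the 22.2% of all genes, and their summed ratio was 1.01 (0.941 to 1.08).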

How the data were processed

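The authors made the deposited counts of unique molecules, one value for each gene in each spot, with Space Ranger 1.3.1 on mm10 (per the labels), and left them without normalization. Members and gene lists were picked with earlier results of these data known. A level is the sum of counts per 10000 summed counts (CP10k) with an exact 95% Poisson interval. The interval of a ratio is the exact binomial one for how the pooled counts split. Software was Python 3.11.15 (numpy 2.4.6; pandas 2.3.3; scipy 1.17.1; matplotlib 3.10.9; scikit-learn 1.9.0). Core spots were found by k-means on log1p CP10k, with 5 clusters over 20 principal components of 2000 variable genes (seed 20). Distances follow the array grid, with 100 µm from spot to spot. For log2 ratios, 0.5 counts were added to each side as a pseudocount, and a gene entered a comparison with a minimum of 10 counts over both groups. Rankings over far lung and over all spots outside the core used genes with 200 counts or more. Named genes were the members, listed genes that a result turned on, and the 10 genes most like the GTPase sum. The 858 barcodes found in both sections belong to the array. At the median depth single genes give few counts per spot, so they were read from sums. Of the 16 other family genes listed, 14 had their symbol in the files. Alternatives were other core, margin and far lung definitions, thinning to 5000 counts, a reduced library size, spot means and each metastasis alone. The computations were tested on simulated counts. Promoter letters came from RefSeq windows on GRCm38.p6, which held 7 of the 9 members. Some listed genes are not reported here.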

Additional observations from a re-analysis of the deposited data

How the results depend on the processing

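Under the other settings first listed, 33 values kept their direction and moved little, 18 moved and 2 reversed. The ratio of margin to far lung (5.10) stayed above 1 throughout. It was 3.69 with the core taken by the level of the 4T1 and proliferation list, 5.44 with far lung beyond 900 µm, 4.33 with spots thinned to 5000 counts, 3.70 with the reduced library size, 4.24 as a mean over spots, 3.31 around the larger metastasis and 3.90 around the smaller. The ratio of core to margin (0.706) reversed to 1.80 with the core taken by list level, and was 0.633 as a mean over spots and 0.608 at the larger metastasis. The ratio of far lung to control (1.50) was 1.05 with the core by list level (0.964 to 1.14), 1.41 beyond 900 µm, 1.65 with the reduced library size, 2.71 on the side of the larger metastasis and 1.31 on that of the smaller. The correlation with Cxcl9 in far lung (0.175) was 0.0902 near the larger metastasis. With 8 clusters the rule picked a core of 3 spots, so that most of the tumour counted as margin or lung. The values were then 2.23, 1.33 (reversed), 2.38 and, for the correlation, 0.419. Taking instead the cluster of 83 spots that shared most with the core, a choice made after seeing the data, gave 5.19, 0.667, 1.50 and 0.175. Also chosen after seeing the data, leaving out mesothelium-rich spots gave 6.03 for margin over far lung and 1.34 for far lung over control, and leaving out airway-rich spots 1.62 for the latter. The causes of these shifts were not tested, apart from the core of 3 spots. The number of members at least 2-fold higher in the margin was 7 to 9 under all alternatives run. No paired analysis was possible because each condition had 1 section. At these depths Gbp5 rested on 27 to 31 counts each in core, margin, far lung and control lung and on 18 in the intermediate zone, and no interval covers the spread between animals.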
